A study of Mus musculus with 16 samples.

Results

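Transcripts of 7 subunit genes of the GABA-A receptor, Gabra2, Gabra3, Gabra4, Gabra5, Gabrb1, Gabrb2 and Gabrd, were examined in the mouse hippocampus. They were found by gene symbol among the 55385 genes of the count table, and all 7 were among the 17132 genes with enough counts to be tested. RNA with a polyadenylated tail had been sequenced from animals aged 9 months in 16 libraries, 4 from each of 4 genotypes, with 2 females and 2 males in each. The 5xFAD-Dp16 mice carried both the 5xFAD transgenes and the Dp16 duplication. The 5xFAD mice carried the transgenes alone, which encode human amyloid precursor protein and presenilin 1 with familial Alzheimer mutations under the neuronal Thy1 promoter. The Dp16 mice carried the duplication alone, an additional copy of a long segment of chromosome 16 whose genes are largely shared with human chromosome 21, and are used as a model of Down syndrome. Wild-type (WT) mice, labelled C57BL/6J, carried neither, and the labels name no drug or other agent for any group. The strain of the other 3 groups, the litters and the breeding were not given in the sources used here. None of the 7 genes lies on chromosome 16, so the duplication did not change their copy number.

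GABA-A receptors are chloride channels built of 5 subunits around a pore, and they carry most fast inhibition in the brain. Receptors with alpha2 or alpha3 are found mainly at synapses. Those with alpha5, abundant in hippocampal pyramidal cells, and those of alpha4 with delta, found in dentate granule cells and in thalamic relay neurons, lie largely outside synapses and carry tonic inhibition. A beta subunit is needed to build the receptor and contributes to the GABA binding site.

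Several of these genes lie in clusters, given here in GRCm38 coordinates. Gabra2 (chr5:70957597-71095849, minus strand), Gabra4 (chr5:71569749-71658308, minus strand) and Gabrb1 (chr5:71658113-72149037, plus strand) form a cluster with Gabrg1. Gabrb2 (chr11:42419757-42629028, plus strand) lies in another with Gabra6. Gabra5 (chr7:57407672-57510059, minus strand) lies near Gabrg3, Gabra3 (chrX:72432681-72656848, minus strand) between Gabre and Gabrq, and Gabrd (chr4:155384980-155398112, minus strand) apart from these. Gabra4 and Gabrb1 are transcribed away from each other with overlapping 5′ ends: their annotated starts were 195 bases apart, and 46 exon bases were shared, 0.756% of the exon bases of Gabra4 and 0.332% of those of Gabrb1. An antisense gene, Gm9962, shared 148 exon bases with Gabra5, or 4.98% of its exon bases. The libraries were strand-specific, but the strand setting of the counting was not stated, so reads from these short stretches may have been assigned to either gene.

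RefSeq promoter windows, 250 bases before a transcript start and 50 after it, were at hand for 6 of the 7 genes (10 windows, GRCm38.p6). The windows of 3 of these genes are printed 5′ to 3′ along the gene's strand. Gabrb2 is shown because it was the one member past the test in the comparisons below, and Gabra4 and Gabrb1 because they start side by side and are compared further on. Where RefSeq gives several starts (3 windows for Gabrb2 and 2 for Gabrb1), the most upstream one is shown. Capitals mark letters that match a searched motif on either strand. For Gabrb2 the window was chr11:42420190-42420489 (plus strand), for Gabra4 chr5:71658259-71658558 (minus strand) and for Gabrb1 chr5:71657671-71657970 (plus strand).
Gabrb2: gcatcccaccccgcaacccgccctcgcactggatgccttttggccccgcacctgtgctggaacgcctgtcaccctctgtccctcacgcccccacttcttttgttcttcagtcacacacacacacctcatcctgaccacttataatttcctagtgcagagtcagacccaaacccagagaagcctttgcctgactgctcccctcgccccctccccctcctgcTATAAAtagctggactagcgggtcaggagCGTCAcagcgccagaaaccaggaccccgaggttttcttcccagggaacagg
Gabra4: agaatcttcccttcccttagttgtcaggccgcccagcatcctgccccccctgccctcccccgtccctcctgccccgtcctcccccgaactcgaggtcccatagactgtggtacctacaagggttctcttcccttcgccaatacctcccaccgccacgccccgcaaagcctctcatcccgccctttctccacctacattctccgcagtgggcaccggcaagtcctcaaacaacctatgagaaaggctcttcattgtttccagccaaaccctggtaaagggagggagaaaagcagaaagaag
Gabrb1: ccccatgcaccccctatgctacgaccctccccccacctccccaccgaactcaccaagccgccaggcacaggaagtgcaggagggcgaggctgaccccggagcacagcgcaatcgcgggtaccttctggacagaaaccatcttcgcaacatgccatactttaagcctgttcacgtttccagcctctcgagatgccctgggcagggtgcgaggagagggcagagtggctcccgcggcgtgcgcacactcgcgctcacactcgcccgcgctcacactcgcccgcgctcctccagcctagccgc
The first run of capitals in Gabrb2 is the TATA box letters TATAAA, which began 30 bases before the transcript start. TATAAA occurred on one strand or the other in 13.6% of all 32851 promoter windows and in 3 of the 10 windows of these genes, the other 2 being overlapping windows of Gabra3. The second run in Gabrb2 matches TGACG, the core of the cyclic AMP response element, on the opposite strand. TGACG was present in 20.8% of all windows and in 1 of the 10. It is contained in the full element TGACGTCA, which occurred in 1.79% of all windows and in none of the 10, as was the case for the Egr element GCGTGGGCG (0.612% of all windows). The windows of Gabra4 and Gabrb1 held none of these motifs, with a GC content of 58.7% for Gabra4 and 66% for Gabrb1. These are matches of letters and not evidence of binding.

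Library totals were 16922937 to 25308693 counts, and members had 353 counts (Gabrd in WT 2) or more in every library. Libraries are named by genotype and the number in their title. Markers of hippocampal cells were present: all 10 dentate granule cell markers and all 10 CA1 and CA3 pyramidal cell markers passed the count filter. All 10 striatum, 8 neocortex and 9 choroid plexus markers passed as well, so the filter does not tell these tissues apart. Markers of the thalamus, which lies next to the hippocampus, set 6 libraries apart. The mean log2 level of 12 thalamic markers, set to 0 at the WT mean, was between 1.24 and 2.08 in 5xFAD-Dp16 1, 5xFAD 6, 5xFAD 13, 5xFAD 15, Dp16 14 and WT 4, and between -0.95 and -0.41 in the other 10. Summed, these markers reached 153.6 to 567 CPM in 5xFAD-Dp16, 169.9 to 595 CPM in 5xFAD, 151 to 878 CPM in Dp16 and 177 to 629 CPM in WT libraries, and Gbx2 was the 1 marker of the 12 with no counts in some libraries (5 of 16). The 5xFAD group thus held 3 such libraries and every other group 1, and results are given with and without them below. In whole tissue, fewer cells of a type and less RNA per cell cannot be told apart.

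Scaled for gene length, Gabra5 was the most abundant member in every group. The values are the deposited RPKM (counts scaled by library total and gene length), with the SD over 4 libraries. Gabra5 averaged 50.5 ± 9.68 RPKM in 5xFAD-Dp16, 44.2 ± 10.6 RPKM in 5xFAD, 63.2 ± 7 RPKM in Dp16 and 60.1 ± 6.49 RPKM in WT libraries. In WT libraries Gabrb2 came next with 25.1 ± 2.42 RPKM, followed by Gabra4 (18.3 ± 1.86 RPKM), Gabra3 (16.8 ± 2.74 RPKM), Gabrb1 (15.9 ± 1.33 RPKM), Gabra2 (13.3 ± 1.87 RPKM) and Gabrd (11.9 ± 1.14 RPKM). Gabra5 and Gabrb2 each stood clear of the next gene in all 4 WT libraries, whereas every later neighbour in this order overlapped in range with the one after it. Of the 7 members' summed RPKM, Gabra5 made up 35.3 ± 5.24% in 5xFAD-Dp16, 31.5 ± 5% in 5xFAD, 38.3 ± 4.34% in Dp16 and 37.2 ± 3.61% in WT libraries. Of the subunit genes outside this set, Gabrg1 and Gabrg3 averaged 4.99 ± 0.598 and 1.99 ± 0.276 RPKM in WT libraries, and Gabra6, Gabrp and Gabrr3 had too few counts to be tested.

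**Figure D1:**
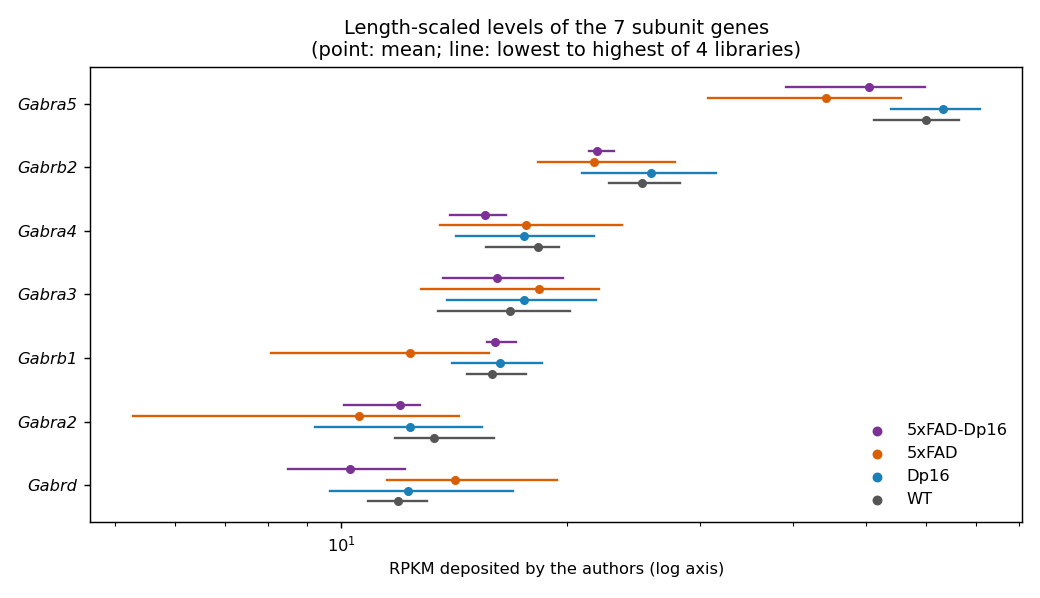
Deposited RPKM (log axis) of the 7 members by genotype. Points are means and lines run from the lowest to the highest of 4 libraries. Gabra5 sits highest, at 60.1 RPKM in WT, and Gabrd lowest, at 11.9 RPKM.

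Per library, levels are given as CPM (counts relative to the TMM-adjusted library total, a unit that compares 1 gene across libraries but not genes of different length). Gabrb2, which encodes the beta2 subunit, had 89.4, 89.8, 90.6 and 94.4 CPM in 5xFAD-Dp16 libraries 1, 8, 9 and 11. It had 74.3, 76.8, 86.7 and 101 CPM in 5xFAD libraries 6, 10, 13 and 15. Values were 103, 90.9, 115 and 127 CPM in Dp16 libraries 3, 5, 12 and 14, and 110.4, 112, 94.8 and 98.5 CPM in WT libraries 2, 4, 7 and 16. The 5xFAD-Dp16 libraries were all lower than every WT library, but narrowly, with a highest value of 94.44 CPM against a lowest of 94.77 CPM in WT. These groups differ by both the transgenes and the duplication and were not tested against each other. The share of all genes that separate them was not counted. The ranges of 5xFAD-Dp16 and Dp16 overlapped. Of the 4 5xFAD libraries, 3 were lower than every WT library, and 5xFAD 15 lay within the WT range.

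Gabra5, the alpha5 subunit of extrasynaptic receptors in pyramidal cells, had 117, 182, 175 and 136 CPM in 5xFAD-Dp16 libraries 1, 8, 9 and 11. It had 136, 169, 121 and 81.1 CPM in 5xFAD libraries 6, 10, 13 and 15. Levels were 195, 205, 219 and 158 CPM in Dp16 libraries 3, 5, 12 and 14, and 195, 147, 181 and 199.6 CPM in WT libraries 2, 4, 7 and 16. In every group the library or libraries of high thalamic markers were the lowest for this gene.

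Gabrb1, the beta1 subunit, had 215.5, 239.5, 222 and 214 CPM in 5xFAD-Dp16 libraries 1, 8, 9 and 11. Its values were 141, 221, 197 and 98.1 CPM in 5xFAD libraries 6, 10, 13 and 15. In Dp16 libraries 3, 5, 12 and 14 it had 228, 242, 264 and 189.5 CPM, and in WT libraries 2, 4, 7 and 16 it had 253, 194, 226 and 208 CPM. The 5xFAD group had the widest spread, and its libraries 10 and 13 lay within the WT range while 6 and 15 lay below it.

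Gabra2, the alpha2 subunit found at synapses and on the axon initial segment, had 74.8, 74.4, 76.2 and 58.9 CPM in 5xFAD-Dp16 libraries 1, 8, 9 and 11. It had 69.1, 85.9, 57.7 and 27.3 CPM in 5xFAD libraries 6, 10, 13 and 15, and library 15 lay below all 15 others, the next of which had 53.1 CPM. Dp16 libraries 3, 5, 12 and 14 had 74, 95.6, 76.8 and 53.1 CPM, and WT libraries 2, 4, 7 and 16 had 97.6, 69.6, 77.7 and 69.5 CPM. All 4 groups overlapped.

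The remaining 3 members overlapped in range between all groups. Gabra4, the partner of delta in tonic receptors, averaged 66 ± 4.96 CPM in 5xFAD-Dp16, 70.2 ± 16.5 CPM in 5xFAD, 75.3 ± 11.3 CPM in Dp16 and 77.2 ± 7.91 CPM in WT libraries (SD, n = 4 each). Gabra3, the alpha3 subunit, averaged 63 ± 9.86 CPM in 5xFAD-Dp16, 67.6 ± 13.9 CPM in 5xFAD, 69.4 ± 10.9 CPM in Dp16 and 65.1 ± 9.24 CPM in WT libraries. Gabrd, the delta subunit, averaged 20 ± 3.13 CPM in 5xFAD-Dp16, 25.9 ± 5.93 CPM in 5xFAD, 24.2 ± 5.37 CPM in Dp16 and 23 ± 1.65 CPM in WT libraries.

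**Figure D2:**
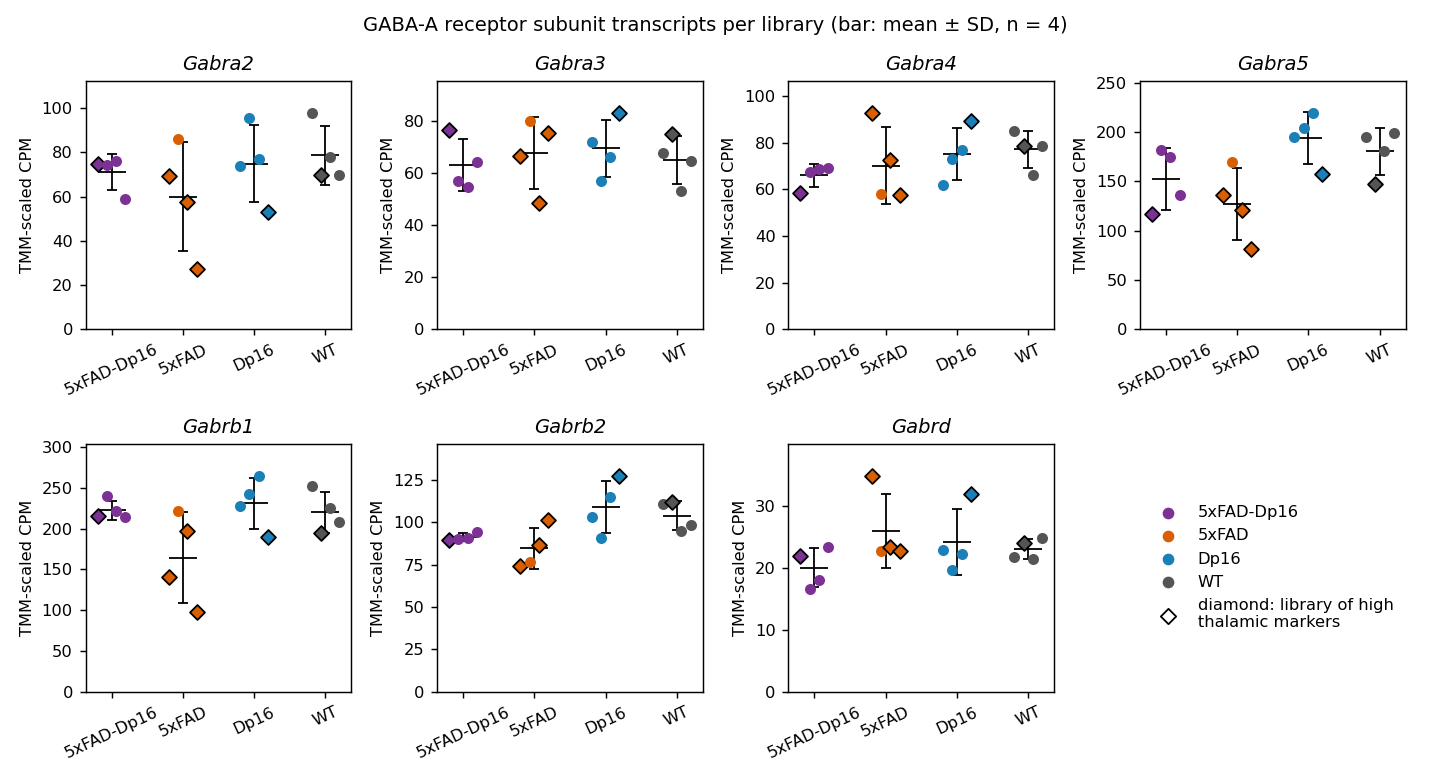
TMM-scaled CPM of each member in every library, by genotype, with the mean and SD of 4 libraries. Diamonds mark the 6 libraries of high thalamic markers, which include 3 of the 4 5xFAD libraries. Gabrb2 lies at 89.4 to 94.4 CPM in 5xFAD-Dp16, at 90.9 to 127 CPM in Dp16 and at 94.8 to 112 CPM in WT libraries. Gabra2, Gabra5 and Gabrb1 reach their lowest values, 27.3, 81.1 and 98.1 CPM, in 5xFAD 15.

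To ask how the amyloid transgenes bore on these genes, the 8 libraries that carry them were set against the 8 that do not, within 1 model of all 16 libraries with genotype and sex as terms. One member, Gabrb2, fell: it averaged 87.9 CPM in carriers and 106 CPM in non-carriers, a log2 fold change of -0.28 ± 0.0748 (SE; 95% interval -0.43 to -0.12, or 0.827-fold; edgeR quasi-likelihood test, adjusted p = 0.0305 over all genes tested). The libraries of the 2 sides overlapped. Over all tested genes 8.6% were called in this comparison and 1.98% were called lower, against 1 of 7 members. Gabra5 averaged 140 CPM in carriers and 187 CPM in non-carriers, with a log2 fold change of -0.43 ± 0.141 that missed the threshold (edgeR adjusted p = 0.0733). The other estimates were -0.23 ± 0.132 for Gabrb1, -0.22 ± 0.185 for Gabra2, -0.17 ± 0.0998 for Gabra4, -0.06 ± 0.118 for Gabrd and -0.04 ± 0.107 for Gabra3. All 7 were negative, with a median of -0.22 against 0.01 over all genes, and 2 of the 7 had an unadjusted p below 0.05, against 25.2% of all genes.

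DESeq2 called Gabra5 (-0.45, adjusted p = 0.0191) as well as Gabrb2, with 13.8% of all genes called, and limma on the deposited RPKM called no member (Gabrb2 -0.22, adjusted p = 0.147). The edgeR call of Gabrb2 was lost when any one of 8 libraries was left out, namely 5xFAD-Dp16 1, 8 and 9, 5xFAD 6, Dp16 12 and 14, and WT 2 and 4, and it held when any one of the other 8 was; over these 16 fits the log2 fold change ran from -0.32 to -0.23 and the edgeR adjusted p from 0.0102 to 0.0773. With the thalamic score as a covariate Gabrb2 was at -0.30 ± 0.0667 (adjusted p = 0.00657) and Gabra5 passed as well, at -0.36 ± 0.0917 (adjusted p = 0.0191), with 10.5% of all genes called. Without the 6 libraries of high thalamic markers, Gabrb2 was at -0.26 ± 0.0848 (adjusted p = 0.139) and Gabra5 at -0.31 ± 0.0874 (adjusted p = 0.0768), while Gabra2 was at -0.03 ± 0.156, Gabrb1 at -0.04 ± 0.0753 and Gabra3 at 0.09 ± 0.105. In that last fit the 5xFAD group is library 10 alone, which is assumed to vary like the rest.

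**Figure D3:**
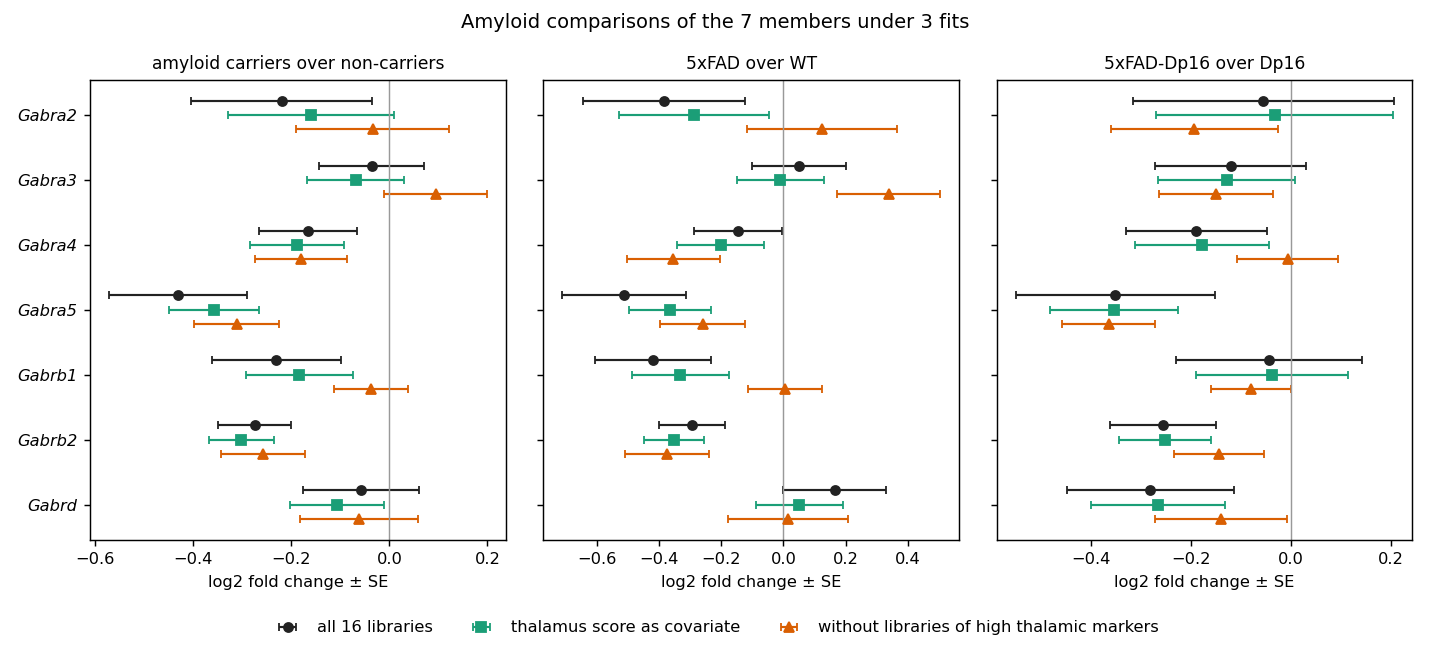
Log2 fold changes of the 7 members, with SE, in 3 comparisons by amyloid transgenes and under 3 fits: all 16 libraries (circles), the thalamic score as covariate (squares) and the 10 libraries of low thalamic markers (triangles). Gabrb2, Gabra5 and Gabra4 stay below 0 in every panel and fit, at -0.28, -0.43 and -0.17 in the first panel with all libraries. Gabra2 and Gabrb1 in 5xFAD over WT lie at 0.12 and 0.01 without the libraries of high thalamic markers. In that fit the 5xFAD group is library 10 alone.

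The 5xFAD and WT groups alone gave no called member, with 7.26% of all genes called. DESeq2 called Gabrb2 (-0.32, adjusted p = 0.0391), with 12.4% of all genes called. With edgeR, 3 of the 7 members had an unadjusted p below 0.05, against 24.9% of all genes: Gabra5 (-0.51 ± 0.199, adjusted p = 0.131), Gabrb1 (-0.42 ± 0.187, adjusted p = 0.179) and Gabrb2 (-0.30 ± 0.106, adjusted p = 0.1). Gabra2 was at -0.38 ± 0.261, Gabra4 at -0.15 ± 0.141, Gabra3 at 0.05 ± 0.151 and Gabrd at 0.17 ± 0.166. The estimates for Gabra2 and Gabrb1 moved with single libraries: without 5xFAD 15 they were -0.15 ± 0.184 and -0.25 ± 0.142. Without 5xFAD 10, which leaves 3 libraries of high thalamic markers, they were -0.71 ± 0.23 and -0.66 ± 0.154, and both passed (adjusted p = 0.0444 for Gabra2 and 0.00955 for Gabrb1), as did Gabra5 at -0.70 ± 0.195 (adjusted p = 0.0236). In that fit 20% of all genes were called. Gabrb2 ran from -0.39 to -0.24 over the fits that left out 1 library, and it passed with the thalamic score as covariate (-0.35 ± 0.0965, adjusted p = 0.0352; 7.06% of all genes called).

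Between 5xFAD-Dp16 and Dp16, whose libraries are separate from those of the previous comparison, no member was called by edgeR, DESeq2 or limma, and 3.02% of all genes were called by edgeR. Gabra5 averaged 152 CPM in 5xFAD-Dp16 and 194 CPM in Dp16 libraries (log2 fold change -0.35 ± 0.199, adjusted p = 0.576). Gabrb2 averaged 91.1 CPM in 5xFAD-Dp16 and 109 CPM in Dp16 libraries (-0.25 ± 0.106, adjusted p = 0.351), and it was the 1 member with an unadjusted p below 0.05, against 11.2% of all genes. Gabrd was at -0.28 ± 0.167, Gabra4 at -0.19 ± 0.141, Gabra3 at -0.12 ± 0.151, Gabra2 at -0.06 ± 0.261 and Gabrb1 at -0.04 ± 0.186. All 7 estimates were negative, with a median of -0.19 against -0.01 over all genes. The comparison of all amyloid carriers, where all 7 were negative too, includes these same libraries. In 5xFAD over WT, 5 estimates were negative and 2 positive.

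The interaction asks whether the amyloid effect differed between mice with and without the duplication. No gene of the whole table was called by edgeR, DESeq2 or limma (0% of 17132), and 1114 genes, none of them a member, had an unadjusted edgeR p below 0.05. The estimates were -0.45 ± 0.235 for Gabrd (95% interval -0.94 to 0.05), 0.38 ± 0.263 for Gabrb1 (-0.19 to 0.94), 0.33 ± 0.369 for Gabra2 (-0.46 to 1.12) and 0.16 ± 0.281 for Gabra5 (-0.44 to 0.76). Gabrb2 was at 0.04 ± 0.15 (-0.28 to 0.36). The interval of Gabrb2 reached the size of its amyloid effect, -0.28, on both sides.

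The Dp16 duplication gave no called member. Dp16 over WT had 0 of 7 called by edgeR, DESeq2 or limma, none of unadjusted edgeR p below 0.05, and 0.228% of all genes called. Estimates ran from -0.07 ± 0.26 for Gabra2 to 0.10 ± 0.198 for Gabra5, and the interval for Gabrb2 was -0.16 to 0.29. With all carriers of the duplication set against all non-carriers, 0 of 7 were called by the same 3 tools, none had an unadjusted edgeR p below 0.05, and 0.531% of all genes were called. Gabrb1 had the largest estimate, 0.26 ± 0.132 (227 CPM in carriers and 192 CPM in non-carriers, edgeR adjusted p = 0.337). It was called when 5xFAD 10 was left out (0.38 ± 0.103, adjusted p = 0.0436), a fit in which 6.88% of all genes were called, and not when any other single library was. In 5xFAD-Dp16 over 5xFAD, 0 of 7 were called by those tools and 0.304% of all genes by edgeR, with unadjusted p below 0.05 for Gabrb1 and Gabrd and for 19.1% of all genes. Gabrb1 averaged 223 CPM in 5xFAD-Dp16 and 164 CPM in 5xFAD libraries (0.44 ± 0.187, adjusted p = 0.218), and Gabrd 20 and 25.9 CPM (-0.37 ± 0.166, adjusted p = 0.238). This comparison shares the 5xFAD libraries with 5xFAD over WT, with the opposite sign. Without 5xFAD 15 Gabrb1 was at 0.27 ± 0.142, and without 5xFAD 10 at 0.69 ± 0.155 (adjusted p = 0.0169), with 11.7% of all genes called in the fit without 5xFAD 10.

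Females and males differed in no member by edgeR, DESeq2 or limma at the threshold, none had an unadjusted edgeR p below 0.05, and 0.0642% of all genes were called. The X-linked Gabra3 averaged 62.4 CPM in females and 70.2 CPM in males (-0.16 ± 0.107, edgeR adjusted p = 0.882). The other 6 lay between -0.08 and 0.19.

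The thalamic content of the libraries went with the members in 2 directions. In the 6 libraries of high thalamic markers Gabra5 had a median of 128 CPM (81.1 to 158), against 188 CPM (136 to 219) in the other 10. Gabrb1 had a median of 192 CPM (98.1 to 215.5) in those 6 and 227 CPM (208 to 264) in the other 10. The mean log2 levels in the 6 libraries differed from those in the other 10 by -0.57 for Gabra5, -0.48 for Gabra2 and -0.47 for Gabrb1, by 0.29 for Gabrd and 0.15 for Gabra3, and by 0.07 for Gabra4 and 0.02 for Gabrb2. The medians of Gabrd were closer, 23.7 CPM in the 6 and 22 CPM in the other 10. Its highest values were in 5xFAD 6 (34.8 CPM) and Dp16 14 (32 CPM). Gabra2 had medians of 63.4 CPM in the 6 and 76.5 CPM in the other 10, with its lowest value in 5xFAD 15 (27.3 CPM). For Gabrb2 the direction differed by group. Its highest WT and Dp16 values were in the libraries of high thalamic markers (WT 4, 112 CPM, and Dp16 14, 127 CPM). In 5xFAD-Dp16 that library was the lowest (library 1, 89.4 CPM). In 5xFAD such libraries lay on both sides of library 10 (76.8 CPM). These are descriptions, since 3 of the 6 libraries are 5xFAD and genotype and thalamic content overlap.

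**Figure D4:**
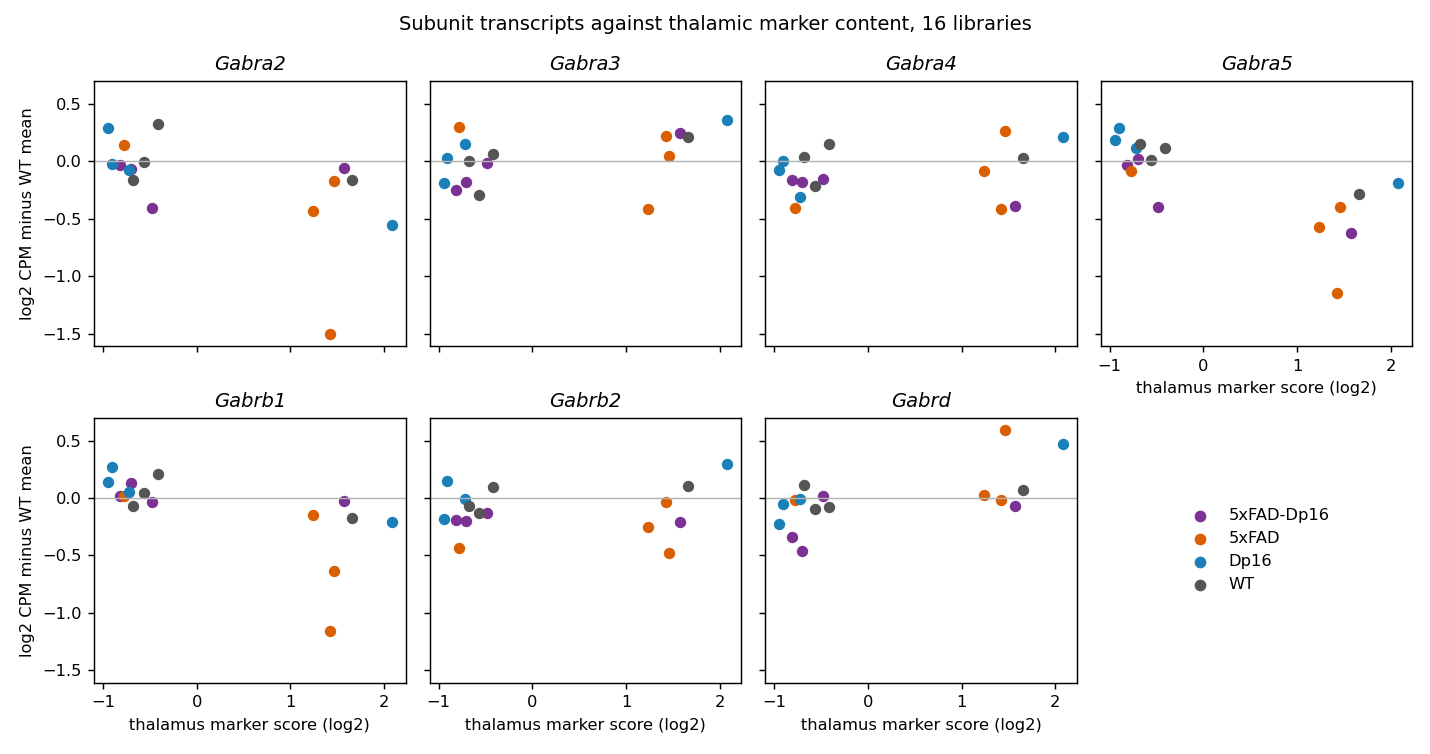
Log2 CPM of each member, relative to the WT mean, against the thalamic marker score of the same library (log2, WT mean at 0), with 1 point per library coloured by genotype. The 6 libraries on the right score 1.24 to 2.08. Gabra5, Gabra2 and Gabrb1 are lower there by 0.57, 0.48 and 0.47 on average, Gabrd is higher by 0.29, and Gabrb2 differs by 0.02. The highest Gabrd points are 5xFAD 6 and Dp16 14.

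Markers of other cell types were also compared between amyloid carriers and non-carriers, where 8.6% of all genes were called and 1.98% called lower. Of 12 excitatory neuron markers, 1 fell and 0 rose in amyloid carriers, with a median log2 fold change of -0.30. The estimates were below 0 for 10 of 10 CA1 and CA3 pyramidal markers (median -0.31), 10 of 10 dentate granule markers (median -0.23) and 12 of 13 inhibitory neuron markers (median -0.22), without any passing the edgeR threshold. The median of the 7 members was -0.22. Summed excitatory markers reached 9211 to 12740 CPM in 5xFAD-Dp16, 4579 to 12360 CPM in 5xFAD, 8483 to 14270 CPM in Dp16 and 8983 to 12850 CPM in WT libraries, with the lowest score of all libraries in 5xFAD 15 (-1.38 log2). In every group the library or libraries of high thalamic markers had the lowest excitatory score. These scores were -0.316 in 5xFAD-Dp16 1, -0.418 in Dp16 14 and -0.357 in WT 4. In 5xFAD they were -0.735 in library 6 and -0.336 in library 13, against -0.093 in library 10. Genotype and thalamic content overlap here too, and their parts in these estimates were not tested. All 11 microglia markers rose, with sums of 842 to 999 CPM in 5xFAD-Dp16 and 780.5 to 1494 CPM in 5xFAD, against 327 to 402 CPM in Dp16 and 332 to 405 CPM in WT libraries. Of 8 astrocyte and 9 oligodendrocyte markers, 4 and 1 rose and 0 fell. The 1 of 12 excitatory and 1 of 9 oligodendrocyte markers called are near the 8.6% of all genes called. The part of these markers in the values of the 7 members was not tested.

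Members did not move as one across the 16 libraries. The distance used is the root mean square difference of log2 CPM, each gene centred on its own mean. The closest pairs were Gabra5 with Gabrb1 (0.214), Gabra4 with Gabrd (0.218) and Gabra2 with Gabrb1 (0.22), and the farthest was Gabra2 with Gabrd (0.537). Genes that vary little are close by this measure whether or not they move together. The root mean square deviation from the gene's own mean was 0.208 for Gabra4 and 0.25 for Gabrd, against 0.365 for Gabra5, 0.341 for Gabrb1 and 0.412 for Gabra2. The distance of Gabra4 to Gabrd was thus no smaller than the deviation of Gabra4 itself. Gabra4 and Gabrb1, whose promoter windows are printed above, were at 0.386. The ratio of their RPKM, Gabra4 over Gabrb1, was 0.892 to 1.06 in 5xFAD-Dp16, 0.861 to 2.16 in 5xFAD, 0.894 to 1.55 in Dp16 and 0.964 to 1.33 in WT libraries, and it was highest in 5xFAD 6 and 15. The ratio of Gabra4 to its partner Gabrd stayed between 1.16 and 1.87 in all 16 libraries. That of Gabra5 to Gabrd, whose subunits belong to the tonic receptors of different cells, ranged from 2.31 in 5xFAD 15 to 7.06 in 5xFAD-Dp16 8. The ratio of Gabra5 to Gabrd was 2.31 to 3.95 in the 6 libraries of high thalamic markers and 3.77 to 7.06 in the other 10. The distance of Gabrd to Gabra3, 0.248, was close to its 0.218 to Gabra4.

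Among the 10299 genes of sufficient level outside the receptor family, the nearest in pattern to Gabrb2 were Kcna2, a voltage-gated potassium channel of axons (distance 0.07 over 16 libraries), and Map7d2, a microtubule-associated protein (0.103). Those nearest to Gabra5 were Lmo3 (0.093) and Gria1, the GluA1 subunit of AMPA receptors (0.095). For Gabrb1 they were the RNA-binding protein Celf2 (0.071) and tenascin-R, Tnr (0.086). Gabra2 was nearest to Syt17 (0.133) and Hrk (0.144), Gabra3 to Cd200 (0.092) and the growth-cone protein Gap43 (0.105), Gabra4 to Tmem68 (0.125) and Ppil3 (0.142), and Gabrd to Mrps24 (0.151) and Wdr53 (0.155). The median distance to all 10299 genes was 0.257 for Gabrb2 and 0.434 for Gabra2.

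Of 19 genes for assembly, trafficking and anchoring of the receptor, 2 fell and 1 rose in amyloid carriers, with a median of -0.19, where 8.6% of all genes were called. Nsf, an ATPase of membrane fusion that binds receptor beta subunits, averaged 1040 CPM in carriers and 1271 CPM in non-carriers (-0.29 ± 0.0751, edgeR adjusted p = 0.0211). Slitrk3, an adhesion protein of inhibitory synapses, averaged 76.2 CPM in carriers and 94.5 CPM in non-carriers (-0.31 ± 0.0897, adjusted p = 0.0398). Gabarap, which binds the receptor and also serves autophagy, averaged 150 CPM in carriers and 132 CPM in non-carriers (0.18 ± 0.0502, edgeR adjusted p = 0.0328). Carriers and non-carriers did not overlap for Gabarap, but the share of all genes that separate them was not counted. Gabarap was also called higher in 5xFAD over WT (0.25 ± 0.071, edgeR adjusted p = 0.0408), where 7.26% of all genes were called. Those libraries are part of the carrier comparison.

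Of 6 genes of neuronal chloride transport, 1 fell and 0 rose in amyloid carriers, where 1.98% of all genes fell. This was Slc12a5, the potassium-chloride cotransporter KCC2 that keeps neuronal chloride low, with 513 CPM in carriers and 601 CPM in non-carriers (-0.23 ± 0.0616, edgeR adjusted p = 0.0256). In 5xFAD over WT, which uses part of the same libraries, Slc12a5 was called lower, at 473 CPM against 581 CPM (-0.30 ± 0.0871, edgeR adjusted p = 0.0477). In that comparison 7.26% of all genes were called. The 5xFAD and WT libraries did not overlap for Slc12a5, but the share of all genes that separate them was not counted. Of 8 genes for making, packaging, taking up and breaking down GABA, 0 were called by edgeR in amyloid carriers (2 at an unadjusted p below 0.05) or in 5xFAD over WT (1). In amyloid carriers the smallest p values among them were those of Aldh5a1, an enzyme of GABA breakdown (-0.14 ± 0.0424, adjusted p = 0.0553), and Gad1, a GABA-synthesizing enzyme (-0.22 ± 0.0717, adjusted p = 0.069). These lists were not refitted with the thalamic score, and no gene of these 3 lists was called by edgeR in Dp16 over WT, in either comparison of 5xFAD-Dp16, in the Dp16 carriers, in the interaction or between the sexes.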

How the data were processed

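Hippocampal RNA (TRIzol) went into strand-specific polyadenylated libraries sequenced on a NovaSeq, per the labels. HTSeq 0.6.1, HISAT2 2.1.0, the build GRCm38 and SAMtools 1.5 are among the names in the submitters' processing notes, which give no roles or settings here. The authors deposited raw counts per gene, used for every test here, and RPKM values, scaled by library total and 1 length per gene, used for levels and 1 alternative. Counts were filtered with filterByExpr (minimum count 10), scaled by TMM (factors 0.9445 to 1.1305) and fitted with edgeR 4.0.16 (R 4.3.3; quasi-likelihood, robust; genotype and sex as terms; 16 libraries), with Benjamini-Hochberg adjustment over 17132 genes and a threshold of 0.05. Alternatives used DESeq2 1.42.0, limma 3.58.1 on log2(RPKM + 0.1), other scaling, filters and models, and left out each library in turn. High thalamic markers means a score above the widest gap between libraries. Fits were tested on simulated data. No pair of libraries agreed within sampling noise (chi-square per degree of freedom 6.67 or more). The design text counts 4 mice per group. Whether separate animals shared a litter or batch is not given in the sources used here.

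Positions came from GENCODE M21 (GRCm38), matched by gene identifier, and promoters from RefSeq (GRCm38.p6), read with Python 3.11.15. The members and gene lists were chosen with earlier results of these data known. All members are named; of each list the called genes are named, at most 4 per comparison by smallest p, or else the 2 of smallest p, and for each member the 2 genes nearest in pattern at or above 3 in mean log2 CPM. Some other genes are not reported here.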

Additional observations from a re-analysis of the deposited data

Results flagged for a closer look

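In 28 groups of 4 libraries (7 members in 4 genotypes), 3 held a library whose distance to its nearest neighbour, divided by the range of the group on the log2 scale, was above Dixon's 95% critical value for 4 samples. Chance gives about 1 such group in 20. Gabra2 was at 58.9 CPM in 5xFAD-Dp16 11, below the other 3 libraries of its group at 74.4 to 76.2 CPM. Gabra4 was at 58.6 CPM in 5xFAD-Dp16 1, a library of high thalamic markers, below the other 3 at 67.7 to 69.1 CPM. Gabrd was at 34.8 CPM in 5xFAD 6, also a library of high thalamic markers, above the other 3 at 22.6 to 23.4 CPM, and without that library its log2 fold change in 5xFAD over WT was -0.01 in place of 0.17.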

How the results depend on the processing

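No paired analysis was possible because the replicate numbers of the labels are unique to each library. The number of members called in amyloid carriers, 1 with edgeR, was 2 with DESeq2, 4 with no low-count filter, 0 with limma on log2(RPKM + 0.1), 0 with limma on log2(RPKM + 1), 2 with the thalamic score as covariate, 0 without the libraries of high thalamic markers and 0 to 3 with 1 library left out. In 5xFAD over WT it was 0, but 1 with DESeq2, 3 with no filter, 1 with the covariate and 0 to 3 with 1 library left out. It was also 0 in 5xFAD-Dp16 over 5xFAD (1 with no filter, 0 to 1 with 1 library left out), in 5xFAD-Dp16 over Dp16 (1 with no filter) and in Dp16 carriers (1 with no filter, 0 to 1 with 1 library left out). The share of all genes called moved as well. In amyloid carriers it was 8.6% with edgeR, 13.8% with DESeq2, 8.68% with no filter (of 32180 genes tested), 8.8% and 8.77% with the limma fits, 10.5% with the covariate, 3.37% without the libraries of high thalamic markers and 6.01% to 19.1% with 1 library left out. In 5xFAD over WT it was 12.4% with DESeq2, 8.37% with no filter, 7.06% with the covariate and 3.22% to 20% with 1 library left out. With no filter it was 5.15% in 5xFAD-Dp16 over 5xFAD, 2.77% in 5xFAD-Dp16 over Dp16, 4.5% in Dp16 carriers and, with no member among them, 0.901% in the interaction. In amyloid carriers, 5xFAD over WT, 5xFAD-Dp16 over 5xFAD and Dp16 carriers, the highest share with 1 library left out was that without 5xFAD 10. Why these counts moved was not tested.

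Among 39 single log2 fold changes, 12 of 339 values under other settings and 23 of 624 with 1 library left out had the other sign, and the cause was not tested. Without the libraries of high thalamic markers, Gabra2 was at 0.12, and Gabrb1 at 0.006, in 5xFAD over WT; Gabra2 was at -0.31, Gabra4 at 0.22 and Gabra5 at -0.001 in 5xFAD-Dp16 over 5xFAD; Gabra2 was at 0.007 and Gabrd at -0.077 in Dp16 over WT; Gabra3 was at 0.094 in amyloid carriers; and Gabrb1 was at -0.085 in the interaction. Gabra3 was at -0.01 in 5xFAD over WT with the covariate, and at 0.002 in amyloid carriers with either limma fit. With 1 library left out, values ran as follows. In 5xFAD over WT, Gabra3 ran from -0.022 to 0.166 and Gabrd from -0.013 to 0.224. In 5xFAD-Dp16 over 5xFAD, Gabra3 ran from -0.216 to 0.025 and Gabra4 from -0.157 to 0.073. In 5xFAD-Dp16 over Dp16, Gabra2 ran from -0.171 to 0.065 and Gabrb1 from -0.11 to 0.007. In amyloid carriers, Gabra3 ran from -0.108 to 0.021 and Gabrd from -0.142 to 0.032. In Dp16 over WT, Gabra2 ran from -0.184 to 0.042, Gabra4 from -0.163 to 0.041, Gabrb2 from -0.009 to 0.139 and Gabrd from -0.119 to 0.174. Gabrd had 353 to 862 counts per library and so the least precision of the 7 members from counting.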
